A study of Mus musculus with 6 samples.

Results

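The genes described here are those that the array's gene table names Wdr or Ttc followed by a number, with at most 1 letter after it. The rule left out 7 such symbols, Wdr19, Wdr35, Wdr63, Wdr78, Ttc8, Ttc21b and Ttc30b. This gave 96 of 21225 genes, 59 Wdr and 37 Ttc genes. They were chosen by name, under a rule that was set with earlier results of these data known. The symbols Ttc30a1, Ttc30a2, Wdr20rt and Wdr83os carry a longer suffix and were counted apart. Expression was measured on Affymetrix arrays in 3 RbpjkCNULL and 3 control lungs, each hybridised to its own array. The lungs were taken whole, from the carina outward, at embryonic day E18.5. RbpjkCNULL embryos (Shhcre/+; RbpjkFlox/Flox) lack Rbpj, the nuclear effector of Notch receptors, in cells where the Shh promoter has driven cre, which in the lung is the epithelium. Another label calls them Rbpjk -/-, although all other lung cells keep the gene. Control embryos are Shh cre/+ in one label and wildtype in another, and both groups are of the C57BL/6 strain. The study compared these lungs to find genes that depend on Notch in the airways.

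Wdr proteins carry WD40 repeats, which fold into a propeller, and Ttc proteins carry tetratricopeptide repeats, which stack into a curved helical groove. Both folds are platforms on which other proteins assemble, so the names group proteins by shape and not by task. Members build motile cilia, carry cargo along cilia, make ribosomes, write chromatin marks, process RNA and direct membrane traffic. In the airway, motile cilia belong to ciliated cells, and Notch signaling is known to favour Clara cells (CCs) over ciliated cells. The genes were therefore grouped by role, with 7 in the axoneme of motile cilia or its assembly, 11 in ciliary transport, centrioles and ciliary signalling, 9 in ribosome biogenesis, 16 in chromatin, RNA and ubiquitin, 17 in membrane traffic, organelles and actin, and 36 with another or an uncertain role.

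All values are log2 expression as deposited, and differences are RbpjkCNULL minus control on that scale. The test was limma, which fits each gene by a linear model and steadies its variance with that of the other genes, followed by Benjamini-Hochberg adjustment over all 21225 genes. The words rose and fell are kept for genes with an adjusted p under 0.05. The arrays had medians of 6.43 to 6.50. Their lower quartiles were 5.03 to 5.11 in RbpjkCNULL replicate 1 and control replicates 1 and 3, and 4.87 to 4.89 in the other arrays, so the arrays fall into sets that cross the conditions. Xist was low in all RbpjkCNULL lungs (4.13 to 4.28) and in control replicate 3 (4.91), and high in control replicates 1 and 2 (10.5 and 10.7), so control replicates 1 and 2 differ in sex from the other 4 embryos. Sftpc, the surfactant protein of alveolar type 2 cells, was at 12.8 to 12.9 in all 6 lungs. Rbpj was at 6.17 to 6.26 in RbpjkCNULL lungs and at 6.45 to 6.74 in control lungs (adjusted p = 0.21 from limma).

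Of the 96 genes, 7 rose in RbpjkCNULL lungs and none fell. They were Ttc29, Ttc21a, Wdr66, Ttc12, Ttc16, Wdr93 and Ttc25, with rises of 0.63 to 1.00 on the log2 scale. None of the 7 passed by the methods' t-test after adjustment over all genes (adjusted p of 0.0652 to 0.277), nor in limma with the Xist level as a covariate. Among all genes 1.16% rose, against 7.29% of the Wdr and Ttc genes, and 0.113% fell. The other 89 genes did not pass limma, 10 of them at an unadjusted p under 0.05 in the upward direction and none in the downward direction (3.56% of all genes were higher and 4.97% lower at that level). The median difference of the 96 genes was 0.01 with quartiles of -0.06 and 0.13, against a median of -0.05 with quartiles of -0.13 and 0.02 over all genes. Of the 96 differences, 50 lay above 0 and 46 below, and the longer tail was on the upper side. More or fewer cells of a type and more or less RNA per cell cannot be told apart in whole lung.

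**Figure D1:**
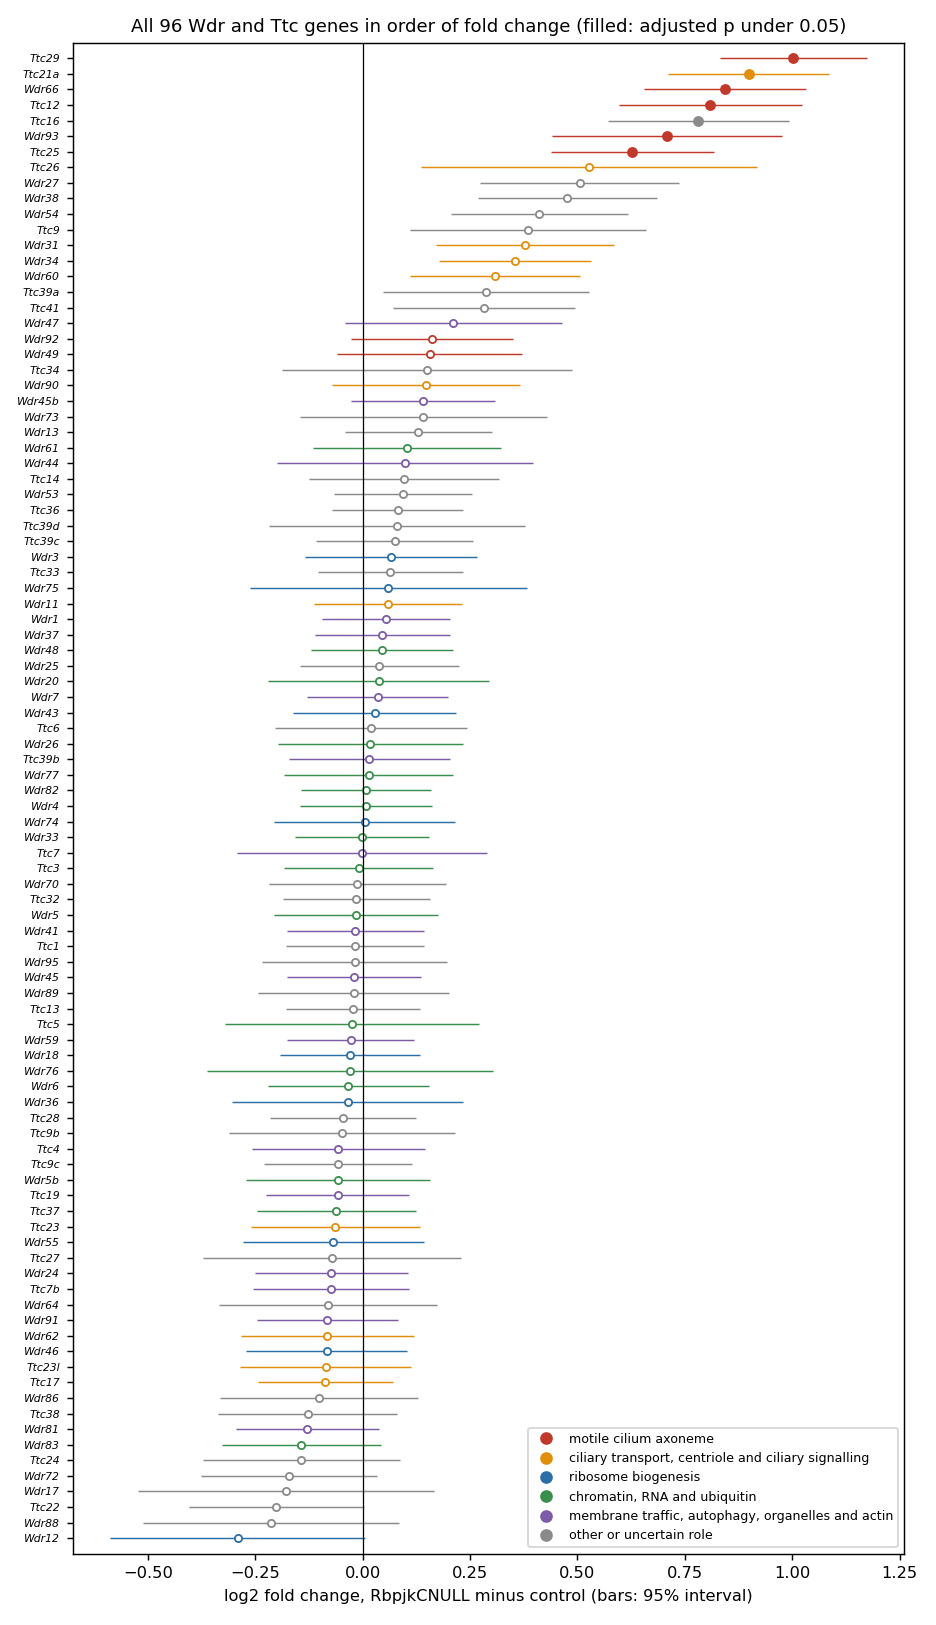
The log2 fold change (RbpjkCNULL minus control, x axis) of each of the 96 Wdr and Ttc genes, ordered from the highest to the lowest, with bars for the 95% interval from limma, colours for the role of the gene and filled points for an adjusted p under 0.05. The 7 filled points form the top of the order, between 0.63 and 1.00, and 5 of them belong to the motile cilium axoneme.

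The axoneme is the microtubule core of the cilium. Of the 7 genes grouped for the axoneme or its assembly 5 rose, against 1.16% of all genes. Ttc29, which sperm flagella need in mouse and human, had values of 7.44, 7.52 and 7.45 in RbpjkCNULL lungs, against 6.39, 6.55 and 6.46 in control lungs. Its difference of 1.00 (standard error 0.07, 2.00-fold higher, adjusted p = 0.00163 from limma) was the largest among the 96 genes. The groups lay 0.89 apart at their nearest lungs, which is far more than the spread within either (SD of 0.04 in RbpjkCNULL and 0.08 in control, n = 3 each).

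Wdr66, later named Cfap251, belongs to a complex at the base of a radial spoke in the axoneme of algae and ciliates. It was at 7.90, 7.89 and 7.89 in RbpjkCNULL lungs and at 7.12, 6.91 and 7.12 in control lungs, a difference of 0.84 (standard error 0.08, 1.79-fold, adjusted p = 0.00326 from limma). The RbpjkCNULL lungs were almost level with each other, and the spread came from control replicate 2. Ttc12 is a cytoplasmic factor for the assembly of dynein arms, and its loss causes primary ciliary dyskinesia in humans. It had values of 7.53, 7.55 and 7.45 in RbpjkCNULL lungs and of 6.54, 6.74 and 6.83 in control lungs, a difference of 0.81 (0.09, 1.75-fold, adjusted p = 0.00568).

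Wdr93 is a little-studied propeller protein that is listed among the proteins of cilia and flagella. It was at 6.28, 6.69 and 6.46 in RbpjkCNULL lungs and at 5.75, 5.67 and 5.88 in control lungs, with a difference of 0.71 (standard error 0.11, 1.63-fold, adjusted p = 0.0326 from limma). Its RbpjkCNULL lungs spread the most of the 7 genes that rose (SD of 0.21, n = 3), and its call was the least secure. It held in 1 of the 6 fits that left out a lung, the one without RbpjkCNULL replicate 1, and was lost without each of the other lungs (adjusted p of 0.0804 to 0.147). Ttc25, later named Odad4, docks outer dynein arms on the microtubule doublets. It had values of 7.44, 7.56 and 7.36 in RbpjkCNULL lungs and of 6.76, 6.82 and 6.91 in control lungs, a difference of 0.63 (0.08, 1.55-fold, adjusted p = 0.011), and its call was lost without RbpjkCNULL replicate 2 (adjusted p = 0.065).

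The other two genes of this group did not pass. Wdr92, a partner of the chaperones that build dynein arms, was at 6.93, 7.10 and 7.15 in RbpjkCNULL lungs and at 6.86, 6.93 and 6.90 in control lungs (difference 0.16, 95% interval -0.03 to 0.35, adjusted p = 0.657 from limma). Wdr49, a protein of cilia and flagella, had values of 3.86, 4.05 and 3.77 in RbpjkCNULL lungs and of 3.68, 3.72 and 3.81 in control lungs (difference 0.16, interval -0.06 to 0.37, adjusted p = 0.698). In both genes the lungs of the conditions overlapped. Wdr49 lay at the level of 3 Y-linked genes in the control lungs with high Xist (3.16 to 4.14), so its signal was not shown to be above background and its interval does not bound a change.

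**Figure D2:**
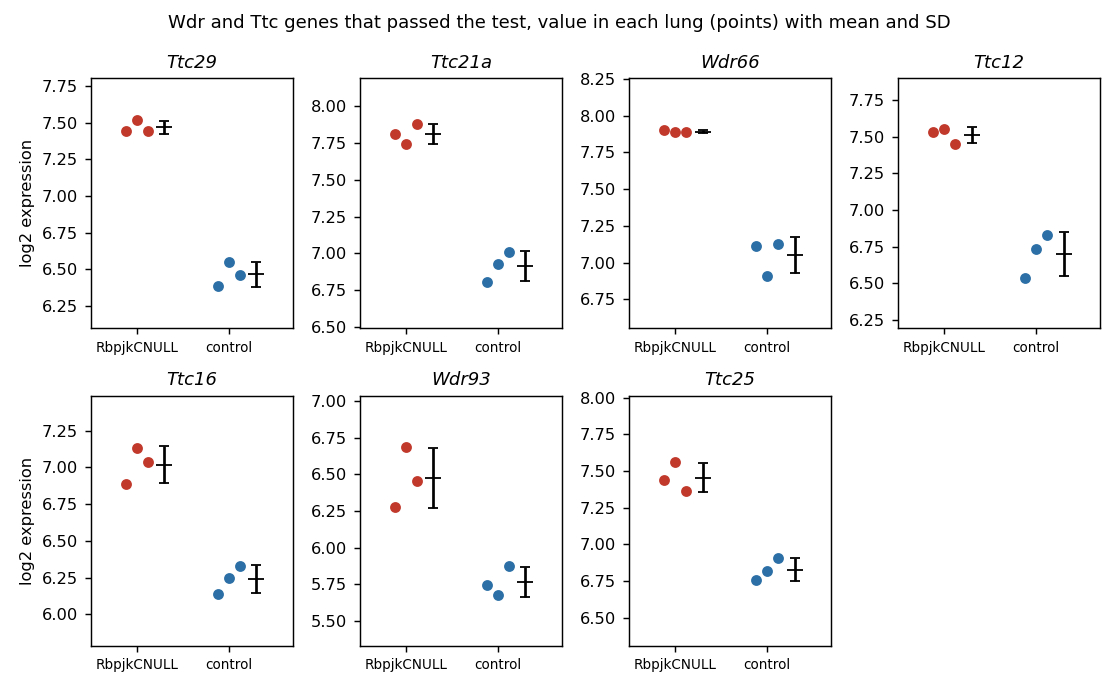
Log2 expression (y axis, each panel spanning the same range) of the 7 Wdr and Ttc genes that passed the test, with a point for each of 3 RbpjkCNULL lungs (left) and 3 control lungs (right) and the mean with SD beside them. In every panel the lowest RbpjkCNULL lung lies above the highest control lung, by 0.40 (Wdr93) to 0.89 (Ttc29).

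Outside the axoneme 2 genes rose. Ttc21a, the paralogue of a subunit of the retrograde transport complex IFT-A, was at 7.81, 7.75 and 7.88 in RbpjkCNULL lungs and at 6.80, 6.93 and 7.01 in control lungs. Its difference was 0.90 (standard error 0.08, 1.86-fold, adjusted p = 0.00274 from limma), with no overlap between the groups. Ttc16, for which no role is given here, was at 6.89, 7.13 and 7.04 in RbpjkCNULL lungs and at 6.14, 6.25 and 6.33 in control lungs. It rose by 0.78 (0.09, 1.72-fold, adjusted p = 0.00617), an amount between those of the axoneme genes Ttc12 and Wdr93.

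The group of ciliary transport, centriole and ciliary signalling held 11 members, of which Ttc21a alone passed (9.09%, against 1.16% of all genes). It fell into genes with positive differences that missed the threshold and genes near 0. Ttc26, also known as Ift56, a subunit of the anterograde complex IFT-B, had values of 6.93, 7.44 and 7.42 in RbpjkCNULL lungs and of 6.48, 6.93 and 6.79 in control lungs. Its difference of 0.53 came with a wide standard error of 0.17 (adjusted p = 0.385 from limma), and RbpjkCNULL replicate 1 was level with control replicate 2.

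Wdr34 and Wdr60 are the intermediate chains of dynein-2, the motor of retrograde transport in cilia. Wdr34 was at 8.12, 8.14 and 8.03 in RbpjkCNULL lungs and at 7.64, 7.80 and 7.77 in control lungs (difference 0.35, interval 0.18 to 0.53, adjusted p = 0.108 from limma). Wdr60 was at 6.84, 7.03 and 7.04 in RbpjkCNULL lungs and at 6.59, 6.74 and 6.66 in control lungs (difference 0.31, interval 0.11 to 0.51, adjusted p = 0.268). Neither gene overlapped between the conditions, and neither passed the test over all genes. Wdr31, which acts in ciliary trafficking in worms and zebrafish, was at 7.38, 7.58 and 7.63 in RbpjkCNULL lungs and at 7.07, 7.19 and 7.21 in control lungs (difference 0.38, interval 0.17 to 0.59, adjusted p = 0.153).

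The remaining 6 members of this group had differences of -0.09 to 0.15. Wdr90, a protein of the centriole wall in human cells, differed by 0.15 (interval -0.07 to 0.37), and Wdr11, which takes part in Hedgehog signalling and Golgi traffic, by 0.06 (interval -0.11 to 0.23). Wdr62, a spindle pole protein whose loss causes microcephaly, differed by -0.08 (interval -0.28 to 0.12), and Ttc23, a partner of the Evc complex of Hedgehog signalling, by -0.06 (interval -0.26 to 0.13). Ttc17, a factor for actin and ciliogenesis in human cells, differed by -0.09 (interval -0.24 to 0.07), as did Ttc23l (interval -0.29 to 0.11). Adjusted p of these 6 genes ran from 0.713 to 0.849 in limma. Ttc23l, at 2.83, 2.67 and 2.62 in RbpjkCNULL lungs and at 2.84, 2.69 and 2.85 in control lungs, was below the level of those Y-linked genes, so its interval bounds nothing. Among the other 5 the highest upper bound, 0.37, lay below the difference of every gene that rose.

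**Figure D3:**
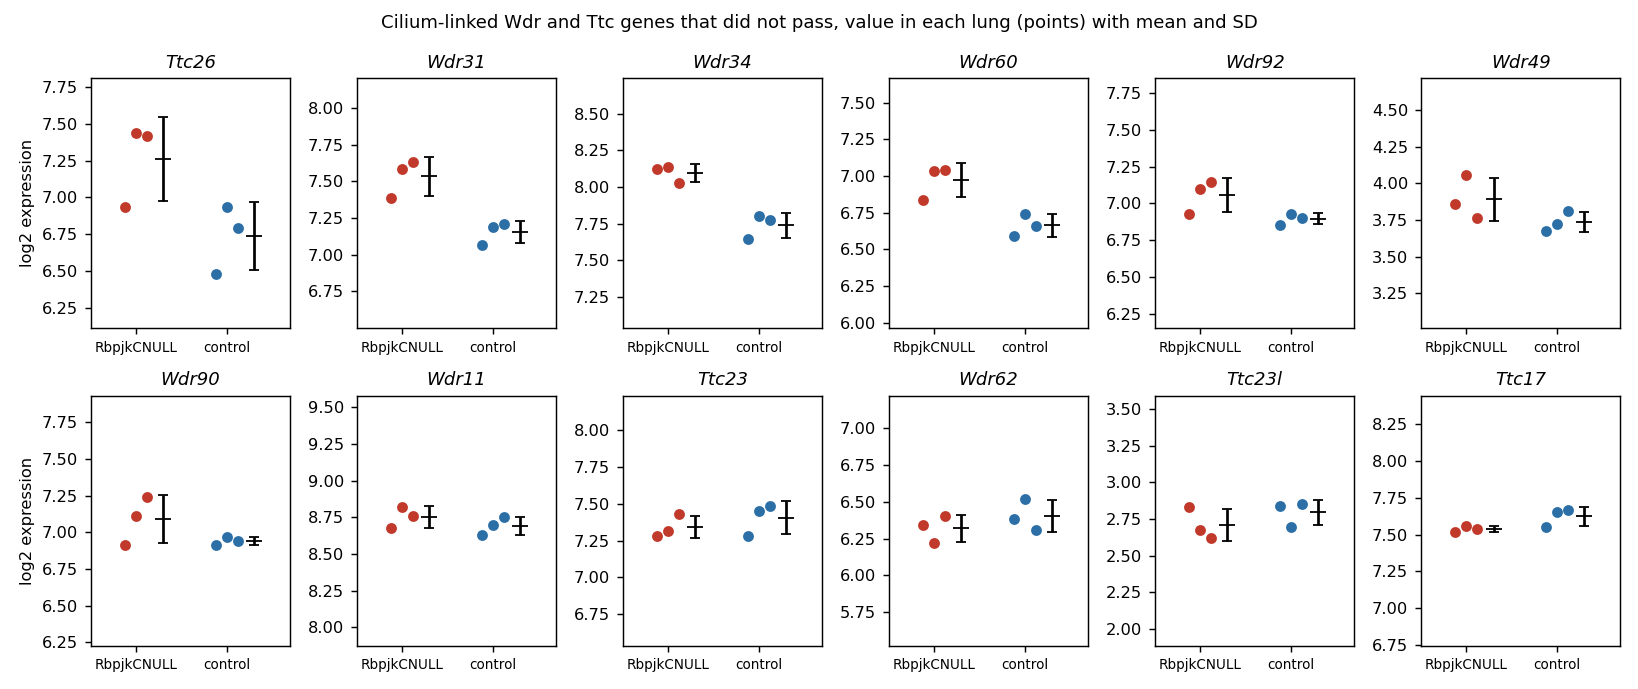
Log2 expression (y axis, each panel spanning the same range) of the 12 Wdr and Ttc genes of the axoneme and of ciliary transport, centriole and signalling that did not pass the test, with points for 3 RbpjkCNULL lungs (left) and 3 control lungs (right) and the mean with SD. The lungs of the conditions are separate in the panels of Wdr31, Wdr34 and Wdr60 and level or overlapping in the other 9.

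Several motile cilium genes once bore Wdr or Ttc symbols and have been renamed, so they are not among the 96. A list of the axoneme had 6 of them measured, and 4 of these rose and none fell. Cfap52 (formerly Wdr16) had a difference of 1.29, Cfap44 (formerly Wdr52) of 1.15, Cfap70 (formerly Ttc18) of 0.96 and Cfap57 (formerly Wdr65) of 0.59, with adjusted p from 0.00121 to 0.00682 in limma. Daw1 (formerly Wdr69) differed by 0.66 (adjusted p = 0.0624) and Cfap46 (formerly Ttc40) by 0.51 (adjusted p = 0.0995), without overlap between the conditions. The median of the 6 genes was 0.81, against 0.71 for the 7 axoneme members that kept their symbols. Over all 38 genes that RefSeq gives a former Wdr or Ttc symbol, a set assembled after the values were seen, 5 rose, none fell and the median was 0.01. Among all genes on the array 1.16% rose, and the median was -0.05.

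Cilium genes are known targets of Rfx and forkhead transcription factors, so the promoters of the 96 genes were searched for short sequences of both (RefSeq, GRCm38.p6, 250 bases before to 50 after each start). A promoter was found for 78 genes. The core of the X-box bound by Rfx factors, GTTGCC in either orientation (read as GGCAAC in the other), was in the promoter of 9 of the 78 genes (11.5%), against 14.1% of all 27025 genes in the table. By role it was in 6 of 16 genes of the cilium groups (37.5%) and in 3 of 62 others (4.84%), Wdr47, Wdr54 and Wdr75. Of the genes that rose, 2 of 6 with a promoter held it, Wdr93 and Ttc21a. The forkhead sequence TGTTTAC (or GTAAACA) was in 1 of the 78 genes, Wdr49, against 4.05% of all genes, and in none of those that rose. No promoter of the 78 held both sequences. The match windows of 5 of the 6 cilium genes are shown to let their flanks be compared, with the X-box core in capitals. Ttc26 and Wdr90 held it at 2 places each, and 1 place is printed for each. The sixth gene, Wdr11, held it at -247, where the window runs past the end of the promoter searched. The windows lie at chr7:79743042-79743071 (plus strand, -95 from the start) for Wdr93, chr9:119937600-119937629 (plus strand, 6 after the start) for Ttc21a, chr6:38381479-38381508 (plus strand, -33) for Ttc26, chr17:25861530-25861559 (minus strand, -32) for Wdr90 and chr15:10558683-10558712 (minus strand, -31) for Ttc23l.
Wdr93: gggaacagattaGTTGCCaggtgggtggga
Ttc21a: gccagcagccagGTTGCCaaggacgcgcgc
Ttc26: cctcccggcggcGTTGCCgtggaaacggag
Wdr90: gaagtgacgcgcGTTGCCaggaggctgttg
Ttc23l: ttccattcccatGGCAACgcattgtctcca
Wdr93 and Ttc21a rose, and Ttc26, Wdr90, Ttc23l and Wdr11 did not pass, so the genes with a match include some of each kind. A match is a stretch of letters and not a measured binding site.

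**Figure D4:**
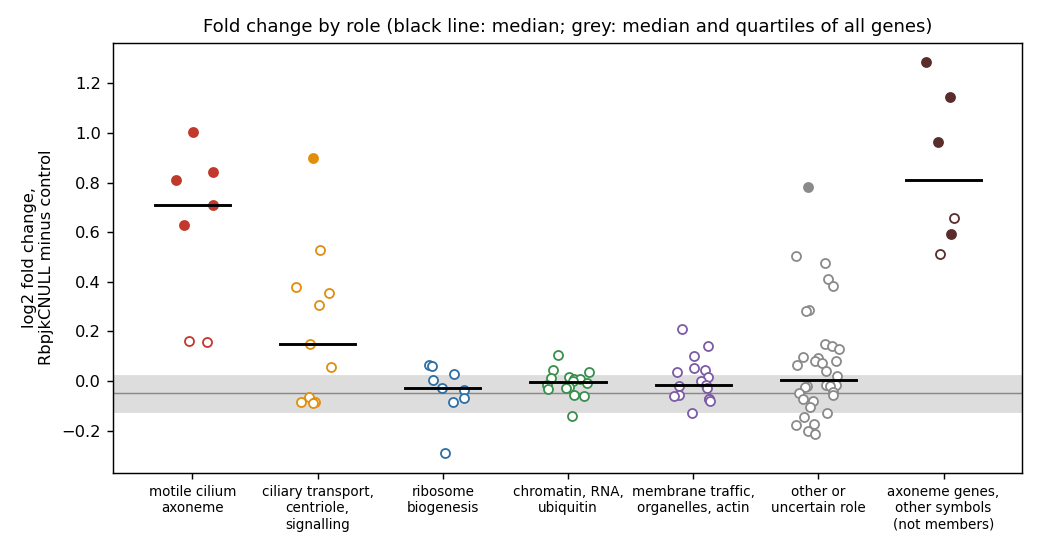
Log2 fold change (RbpjkCNULL minus control, y axis) of single genes grouped by role, with filled points for an adjusted p under 0.05, black lines for group medians and a grey band for the median and quartiles of all genes. The medians are 0.71 for the axoneme and 0.15 for ciliary transport, centriole and signalling, and between -0.03 and 0.003 for the other 4 roles, and the renamed axoneme genes at the right are not members.

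Of 36 genes with another or an uncertain role, Ttc16 alone passed (2.78%, against 1.16% of all genes), and 18 differences were above 0 and 18 below. At an unadjusted p under 0.05 in limma 7 were higher and none lower, and 8 lay above the control lungs without overlap and none below. Over all genes 3.56% were higher and 4.97% lower at that level, and 4.95% lay above and 9.28% below without overlap. Below Ttc16 came Wdr27, at 6.30, 6.14 and 6.10 in RbpjkCNULL lungs and at 5.62, 5.57 and 5.85 in control lungs (difference 0.51, standard error 0.10, adjusted p = 0.076 from limma). Wdr38 was at 6.94, 6.73 and 6.82 in RbpjkCNULL lungs and at 6.32, 6.26 and 6.48 in control lungs (difference 0.48, standard error 0.09, adjusted p = 0.0624). Both genes lay just outside the threshold, and their groups of lungs were 0.25 apart. Wdr54 was at 6.46, 6.69 and 6.70 in RbpjkCNULL lungs and at 6.13, 6.25 and 6.23 in control lungs (difference 0.41, adjusted p = 0.109).

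Ttc9 differed by 0.38 (adjusted p = 0.358 from limma), Ttc39a by 0.29 (adjusted p = 0.472) and Ttc41 by 0.28 (adjusted p = 0.39), each without overlap but with RbpjkCNULL and control lungs only 0.04 to 0.10 apart. The lowest differences of this group were those of Wdr88 (-0.21), Ttc22 (-0.20), Wdr17 (-0.18), Wdr72 (-0.17) and Ttc24 (-0.14), with adjusted p from 0.597 to 0.771. All of these 5 genes overlapped between the conditions, and Wdr17, Wdr72 and Wdr88 lay at the level of the Y-linked genes named above.

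Members with housekeeping tasks showed no gene past the threshold. Among all genes 1.16% rose and 0.113% fell, so no passing gene in groups this small is near the share over all genes. None of 9 ribosome biogenesis genes passed (median -0.03, against -0.05 for all genes). Wdr12, a subunit of the complex that matures the large ribosomal subunit, had the lowest difference of the 96 genes, -0.29 (interval -0.59 to 0.01, adjusted p = 0.601 from limma), with values of 5.84, 5.95 and 6.11 in RbpjkCNULL lungs and of 6.00, 6.34 and 6.43 in control lungs. The other 8, among them Wdr3, Wdr36, Wdr43 and Wdr75 of the small subunit processome, lay between -0.08 and 0.07. In RbpjkCNULL replicate 1 the median deviation of the 9 genes from their means was -0.12, and in RbpjkCNULL replicate 3 it was 0.11, so these genes differed more between lungs of 1 condition than between conditions. A list of 7 genes of proliferating cells had its lowest median deviation in the same lung, with -0.60, 0.12 and 0.06 in RbpjkCNULL replicates 1, 2 and 3 and 0.02, 0.40 and 0.04 in control replicates 1, 2 and 3, and its part in the ribosome values was not tested.

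None of 16 genes of chromatin, RNA and ubiquitin passed, with a median of -0.01 and a range of -0.14 to 0.10. Wdr83, a scaffold that is also found in spliceosomes, had the lowest value of this group, at 7.19, 7.06 and 7.24 in RbpjkCNULL lungs and at 7.38, 7.24 and 7.29 in control lungs (difference -0.14, adjusted p = 0.682 from limma). Wdr61, shared by the Ski and PAF complexes, differed by 0.10, and Ttc37, the scaffold of the Ski complex, by -0.06. Wdr5, which holds together the complexes that methylate histone H3, was at 7.26 to 7.44 in RbpjkCNULL lungs and at 7.28 to 7.45 in control lungs.

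Of 17 genes of membrane traffic, organelles and actin none passed, and the median was -0.02. Wdr47, a microtubule-binding protein, was at 7.33, 7.33 and 7.36 in RbpjkCNULL lungs and at 6.92, 7.14 and 7.34 in control lungs (difference 0.21, interval -0.04 to 0.46, adjusted p = 0.668 from limma). Wdr45b of autophagy differed by 0.14 and Wdr81 of endosomes by -0.13, both without overlap and with lungs 0.03 or less apart. Wdr1, which helps cofilin to take actin filaments apart, was at 10.08, 10.08 and 10.11 in RbpjkCNULL lungs and at 10.06, 9.995 and 10.04 in control lungs, a difference of 0.05.

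Some members are paralogues of each other. Ttc39a had a difference of 0.29, and its paralogues Ttc39b, Ttc39c and Ttc39d had differences of 0.02, 0.07 and 0.08. Ttc9 had a difference of 0.38, against -0.05 for Ttc9b and -0.06 for Ttc9c. Wdr5 and Wdr5b (-0.02 and -0.06), Ttc7 and Ttc7b (-0.002 and -0.07), and Ttc23 (-0.06) were all near 0. The paralogue of Ttc23, Ttc23l (-0.09), lay below the level of the Y-linked genes, so its difference bounds no change. None of these genes passed, and differences between relatives were not tested. The counted-apart symbols did not pass either, with differences of -0.02 for Ttc30a1, -0.03 for Ttc30a2, -0.07 for Wdr20rt and -0.26 for Wdr83os (adjusted p of 0.543 to 0.976 from limma). Over the lungs Wdr20rt (3.88 to 4.21) and Ttc30a2 (3.93 to 4.62) lay near the highest Y-linked level, 4.14. No bound is given for them. Ttc30a1 and Ttc30a2 are close copies, and their array signals may not be separate.

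The 3 against 3 lungs gave bounds for most of the genes that did not pass. For 6 of the 89, Wdr49, Wdr64, Ttc23l, Wdr72, Wdr17 and Wdr88, the mean was no higher than the Y-linked level of 4.14, and no bound is given. For 73 of the other 83, the 95% interval, not adjusted for the number of genes, lay within 0.5 of 0 on the log2 scale. For 9 it reached past a rise of 0.5 (Ttc26, Wdr27, Wdr38, Wdr54, Ttc9, Wdr31, Wdr34, Wdr60 and Ttc39a), and for 1 past a fall of 0.5 (Wdr12). No interval reached a 2-fold change in either direction. RbpjkCNULL lungs all lay above control lungs in 19 of the 96 genes, against 4.95% of all genes, and all below in 2 (Wdr81 and Wdr83), against 9.28% of all genes. The 19 included the 7 genes that rose.

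Markers of ciliated cells moved with these genes. Of 24 markers, all measured and none of them a Wdr or Ttc symbol here, 20 rose and none fell, with a median of 0.88. Of all 21225 genes 1.16% rose and 0.113% fell, and their median was -0.05. The marker lists were set with earlier results of these data known. The summed linear level of the 24 ciliated cell markers was 4264 to 4518 in RbpjkCNULL lungs and 2343 to 2618 in control lungs. Foxj1, the master regulator of motile cilia, was at 7.89 to 7.98 in RbpjkCNULL lungs and at 6.86 to 7.35 in control lungs (difference 0.78, adjusted p = 0.0333 from limma). Of 9 CC markers 8 fell, with a median of -1.31 over the list and a summed level of 2269 to 3114 in RbpjkCNULL lungs, against 6608 to 7498 in control lungs. The ninth, Aldh1a1, was at 9.82, 9.53 and 9.28 in RbpjkCNULL lungs and at 8.88, 8.67 and 8.92 in control lungs (difference 0.72, adjusted p = 0.0805 from limma). All listed CC markers other than Scgb3a1 and Aldh1a1 were picked by the study on these lungs for being lower, so their count is no independent evidence of direction. No gene of the neuroendocrine (9), basal (4), alveolar type 2 (6), alveolar type 1 (5), cartilage (7), smooth muscle (6), endothelial (5), leukocyte (5), erythroid (3) or proliferation (7) lists passed. The part of cell numbers in the rise of the 7 genes was not tested.

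The median deviation of the 7 genes from their means was 0.43, 0.45 and 0.41 in RbpjkCNULL replicates 1, 2 and 3, and -0.49, -0.41 and -0.30 in control replicates 1, 2 and 3. Control replicate 3, the control lung with low Xist, had the highest control value in 6 of the 7 genes, control replicate 1 had the lowest in 5, and control replicate 3 lay below every RbpjkCNULL lung in all of them. The 7 genes were picked by the test on these same lungs, which favours such a gap. RbpjkCNULL replicate 1 and control replicate 1 were the lowest of their group in 51 and 58 of the 96 genes. With the Xist level of each lung as a covariate, chosen after the data were seen, the 7 differences were 0.53 to 1.01 and none passed (adjusted p of 0.112 to 0.606 in limma, 7 of 7 at an unadjusted p under 0.05). That fit gave 0 genes higher and 0 lower over the whole array. Whether sex takes part in these differences was not tested further.

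**Figure D5:**
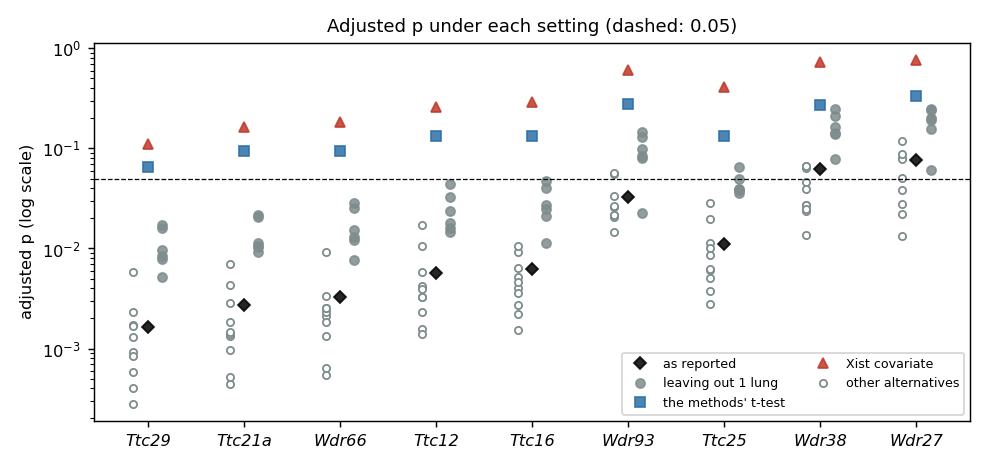
Adjusted p (y axis, log scale) of the 7 Wdr and Ttc genes that rose and of Wdr38 and Wdr27, which lay just outside the threshold, as reported (diamonds), with 1 lung left out (filled circles), by the methods' t-test (squares), with the Xist covariate (triangles) and under the other alternatives (open circles). Ttc29, Ttc21a, Wdr66, Ttc12 and Ttc16 stay under the dashed line at 0.05 with any 1 lung left out, Wdr93 does so in 1 of 6 fits and Ttc25 in 5 of 6, and no gene does so by the methods' t-test or with the Xist covariate.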

How the data were processed

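Total RNA of whole lungs was amplified, labelled with biotin and hybridised to Affymetrix Mouse Gene 1.0 ST arrays by the authors. The deposited values are log2 expression values, which the authors made by RMA under R 2.12.0 with probes grouped by Entrez Gene. They were used as deposited. Gene names came from the platform's table, which gave 20239 of 21225 genes 1 symbol and 986 none, and the symbols of all 96 genes are the same in RefSeq. RbpjkCNULL and control lungs were tested against each other in limma 3.58.1 and R 4.3.3 (lmFit and eBayes without trend, no covariate), with Benjamini-Hochberg adjustment over all genes. The fit was also run on simulated data with independent noise in each lung, as a check of the code only. No call here rests on that run. Genes were named if they passed, belonged to a cilium group, had the largest changes of their role group, or showed no overlap at an unadjusted p under 0.05. Wdr1, Wdr5 and the paralogues were named after their values were seen. Motifs were counted without a test. The genes, lists and tests were chosen with earlier results of these data known. Litters are not given in the sources used here. The number of arrays limits the precision. Protein sequences were not used here.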

Additional observations from a re-analysis of the deposited data

How the results depend on the processing

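Limma alternatives in scaling, moderation, array weights and filters gave 7 to 10 Wdr and Ttc genes higher, and leaving out 1 lung gave 5 to 7. No planned setting gave a gene that fell. By the methods' t-test 0 of the 96 genes were higher at an adjusted p under 0.05, which is stricter than the study's own limit (16 without adjustment, 17 by limma). Of the axoneme members 0 were higher (5 unadjusted), and over all genes 8 were higher and 0 lower (734 and 1035 unadjusted). With the Xist covariate, chosen after the data were seen, limma gave 0 genes higher (10 unadjusted), 0 axoneme members (5 unadjusted) and, over all genes, 0 higher and 0 lower (376 and 1042 unadjusted). Leaving out 1 lung gave 3 to 5 axoneme members, 3 of them without RbpjkCNULL replicate 2, and over all genes 128 to 213 higher and 11 to 36 lower. Array weights gave 49 genes lower over all genes, and a covariate for the arrays' lower quartiles, also chosen after the data were seen, 62. The median of the 96 genes ran from -0.02 to 0.05. Of genes that had not passed, some changed sign: Wdr47 (-0.0271), Wdr11 (-0.0117) and Wdr62 (0.0368) with the Xist covariate, and Ttc23l by quantile normalization (0.00363) and with the lower quartiles (0.0045). Wdr38 passed in 7 and Wdr27 in 4 of their alternatives, Wdr34 and Wdr31 in 2 each and Wdr54 and Ttc39a in 1 each. Same-numbered lungs did not deviate together throughout (correlations of 0.49, 0.31 and -0.09), so they were not taken as pairs. Whether they share a litter or a batch was not tested. With the replicate number as a block, 7 genes rose, 4 of them of the axoneme: Ttc26 passed (adjusted p = 0.0288) and Wdr93 did not (adjusted p = 0.0554), and 273 genes were higher and 31 lower over all genes.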
